A study of Mus musculus with 28 samples.

Results

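Acetylation of lysine 120 of histone H2B (H2BK120ac) was profiled by CUT&Tag in mouse embryonic stem cells (mESCs), and the groups coded TT and TD were compared. They make up 6 of the 28 samples of the series, 3 in TT and 3 in TD, and were chosen because the first letter of the code is T in both while the second letter differs. The series examines active chromatin after loss of FOXD3, a pluripotency factor of the forkhead family, induced with tamoxifen (4HT) and set against solvent. Per the labels, every sample of TT and TD, and of the groups ED and ET used beside them (3 each), came from FOXD3-iKO mESCs in L2i medium with a treatment time of 24 h. The labels do not spell out the letters of the codes. Which of these groups had lost FOXD3, and which agent or state the second letter stands for, is therefore not known here (the name of the table carries trp). How the inducible knockout was built, how many clones were used and whether replicates were separate cultures, the labels do not say.

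Histones wrap DNA into nucleosomes, and acetyl groups on their lysines mark chromatin that is open to transcription. H2BK120ac sits on a lysine of H2B that can carry ubiquitin instead, and the acetylated form is found at active promoters and enhancers. In CUT&Tag an antibody brings a transposase to the marked chromatin, so that DNA next to the mark is cut out and sequenced. In embryonic stem cells such marks cover the genes of the pluripotency network (Nanog, Sox2, Klf4, Esrrb), genes that all cells use, and genes that answer to signals or stress, such as the targets of the transcription factor p53.

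Each deposited value was the coverage, scaled for depth (CPM), of 1 of 127646 regions on the mm10 build, whose median width was 252 bp. The 3 replicates of a group had been merged into 1 column, so no spread between replicates could be computed, no test was possible and no p-value is given. A single fragment was taken to be worth the value found most often in a column, 0.412 CPM in TD and 0.415 CPM in TT, which implied 2.43 M and 2.41 M fragments. At this depth 48.2% of the regions in TD and 47.5% in TT had no coverage. Regions were therefore compared mainly where the mean of TD and TT reached 5 fragments (2.07 CPM), called well covered here, and by size, at least 2-fold on the scale of log2(value + 0.4). Intervals on ratios of TT to TD are 95% Clopper-Pearson intervals on the pile-up of both columns. The pile-up is a value divided by that of 1 fragment and rounded, so it is a mean depth and not a count of fragments. A region can hold more fragments than its pile-up. Fragment numbers given for regions and genes are such depths. The lowest value of each H2BK120ac column was 0.25 of the commonest. A fragment may thus be worth less than taken here, which would raise the implied depths and pile-ups and narrow the intervals. The intervals are therefore approximate, and they cover counting error only. Coverage followed the labelled cell type in a broad way. The median of the gene values (mean over regions within 50 kb) was 1.14 CPM in TD and 1.07 CPM in TT over 13 core pluripotency genes, against 0.555 and 0.600 CPM over 9 markers of fibroblast feeder cells.

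Promoter sequences of 4 genes that recur below are given first, because a region of the comparison covers the whole of each window. Each is the stretch of 250 bases before the transcription start site (TSS), on the strand of the gene, from RefSeq on GRCm38.p6 (the assembly of mm10). Ccng1, a cyclin gene induced by p53, holds the strongest of the promoter regions named here (chr11:40755287-40755536). Ftl1 encodes the light chain of ferritin, the iron store of the cell (chr7:45459887-45460136). Pcna encodes the sliding clamp of DNA replication (chr2:132253181-132253430). Kifc5b encodes a motor protein of the spindle (chr17:26916841-26917090). Capitals mark matches, on either strand, to the GC box GGGCGG, the CCAAT box CCAAT, the antioxidant response element core TGACNNNGC and the half-site of p53.
Ccng1: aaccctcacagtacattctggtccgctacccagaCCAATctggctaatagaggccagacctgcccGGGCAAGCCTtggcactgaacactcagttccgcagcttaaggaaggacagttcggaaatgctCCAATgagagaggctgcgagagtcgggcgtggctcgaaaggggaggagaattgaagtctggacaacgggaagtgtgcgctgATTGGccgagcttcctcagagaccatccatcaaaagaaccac
Ftl1: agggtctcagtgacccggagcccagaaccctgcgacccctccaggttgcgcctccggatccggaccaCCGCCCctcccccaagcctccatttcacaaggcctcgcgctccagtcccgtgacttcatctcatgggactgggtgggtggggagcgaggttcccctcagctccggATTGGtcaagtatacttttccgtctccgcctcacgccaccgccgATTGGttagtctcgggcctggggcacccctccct
Pcna: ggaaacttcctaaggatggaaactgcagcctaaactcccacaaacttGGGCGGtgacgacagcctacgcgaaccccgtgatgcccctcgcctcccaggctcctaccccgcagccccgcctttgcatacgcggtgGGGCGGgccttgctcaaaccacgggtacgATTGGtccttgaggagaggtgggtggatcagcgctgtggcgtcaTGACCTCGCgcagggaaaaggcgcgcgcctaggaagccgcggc
Kifc5b: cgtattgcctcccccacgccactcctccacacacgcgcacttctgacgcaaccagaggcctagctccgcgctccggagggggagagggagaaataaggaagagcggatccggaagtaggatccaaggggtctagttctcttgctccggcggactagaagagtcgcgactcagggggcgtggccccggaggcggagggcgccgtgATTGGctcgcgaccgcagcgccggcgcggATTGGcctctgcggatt

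TT and TD had much the same landscape of H2BK120ac. Regions near Vmac, Atp9a and Gpr157 were among the strongest in both, and 77 of the 100 highest regions of each column were shared. Over all regions the columns had a Pearson r of 0.886 and a Spearman rho of 0.559, as a description over regions that share library and depth. ED and ET shared 52 of their 100 highest regions, with an r of 0.729. Across the first letter far fewer were shared: 3 of 100 between TT and ET and 2 of 100 between TD and ED. Both TD and TT had coverage in 47170 regions, while 18898 regions had coverage in TD only and 19816 in TT only. Those covered in a single group were weak, at 2.25 CPM or less, and no well-covered region was without coverage in TT or in TD.

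Within this common landscape the well-covered regions were, as a whole, slightly lower in TT. Their mean was 4.45 CPM in TD and 3.92 CPM in TT, a ratio of 0.881, and the median log2 fold was -0.16, with quartiles of -0.49 and 0.18. TT was above TD in 37.4% of them. There were 4021 such regions: 79 (1.96%) passed 2-fold towards TT, 218 (5.42%) passed it towards TD, and 3724 lay within 2-fold. The regions below that level had nearly equal means, 0.305 CPM in TD and 0.303 CPM in TT. The shift depended on the scaling. After quantile normalization, which makes the distributions of the columns equal and so removes such a shift by construction, the median log2 fold was 0 and the split was 122 higher against 119 lower. After centring on the well-covered median, an alternative added after the data were seen, the split was 163 against 135. Whether TT had less H2BK120ac at strong regions or a more even spread of fragments cannot be told apart here.

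**Figure D1:**
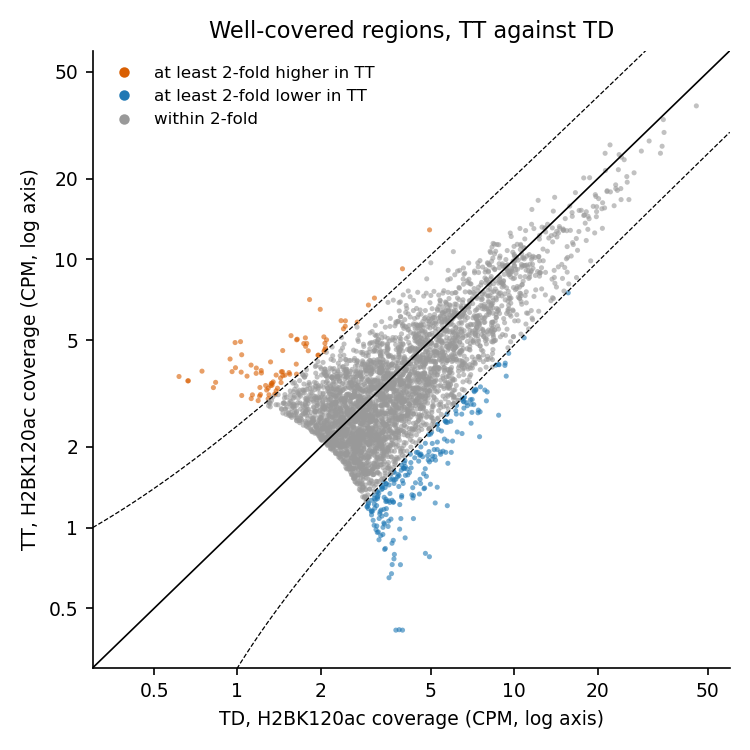
H2BK120ac coverage (CPM, log axes) of the 4021 well-covered regions in TD (horizontal) and TT (vertical), each point a region and a merged value. The solid line marks equality and the dashed lines 2-fold on the scale of log2(value + 0.4); 79 points lie at or above the upper and 218 at or below the lower dashed line, most of them among the weaker regions.

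The shift was found in every class of regions examined. In the 1127 regions within 1 kb of a TSS (proximal) the median log2 fold was -0.15, with 15 regions at least 2-fold higher (1.33%) and 44 lower (3.9%). In the 2894 distal regions it was -0.16, with 64 higher and 174 lower. The 269 regions more than 200 kb from a TSS had a median of -0.23, with 1 higher and 20 lower. By chromosome the median was negative on 20 of 20, from -0.25 on chromosome 9 to -0.06 on chromosome 5. By level it was -0.13 in regions with a mean under 3 CPM and -0.28 in the 55 regions at 15 CPM or more, of which 0 passed 2-fold. It was also negative in each class of H3K27ac level in 4HT cells, from -0.07 in the 162 regions without H3K27ac coverage to -0.22 in the 1098 regions at 2 to 5 CPM. Folds were alike only over short distances. Neighbouring well-covered regions less than 500 bp apart had a Pearson r of 0.44 over 663 pairs, which can share fragments, and pairs 500 to 2000 bp apart an r of 0.05 over 230.

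The same change of the second letter in the cells coded E went the other way. In the 4021 regions the mean was 1.20 CPM in ED and 1.39 CPM in ET, with a median log2 fold of 0.12 for ET against ED, and the chromosome medians were positive on 20 of 20. Among the 2321 regions well covered in ET and ED, ET was the higher by 2-fold or more in 157 (6.76%) and the lower in 76 (3.27%). In the 574 regions well covered in both pairs, TT against TD had 10 higher and 39 lower with a median of -0.22, and ET against ED had 33 higher and 9 lower with a median of 0.14. TT was below TD and ET above ED in 230 of these, and the opposite held in 68. The pairs share no samples. The difference between them could not be tested on merged columns. The opposite signs hold for CPM as deposited, and ET against ED was not rescaled.

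**Figure D2:**
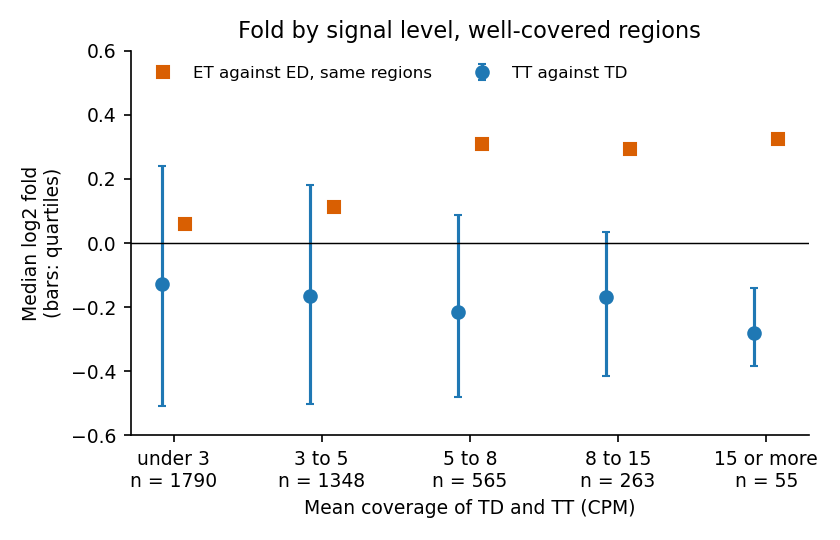
Median log2 fold by mean coverage of TD and TT in the well-covered regions, for TT against TD (blue circles, bars from the lower to the upper quartile) and for ET against ED in the same regions (orange squares). The blue medians lie between -0.13 and -0.28 and the orange ones above 0 at each level.

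The 10 strongest regions were all distal, and 8 of them were lower in TT, by less than 2-fold. The highest was at chr17:56709777-56710007, inside Ranbp3, which encodes a nuclear export cofactor, with Vmac as the nearest start, and had 45.4 CPM in TD and 37.4 in TT. A region inside Atp9a, a phospholipid flippase gene, had 34.5 and 33.2, and one 38235 bp from Gpr157, an orphan receptor gene, had 34.7 and 29.8. These 3 had between 0.587 and 2.10 CPM in ED and ET, so they were strong in both T groups and weak in both E groups. Neighbouring regions near Ppp1r21, at chr17:88498261-88498609 and chr17:88498797-88498999, had the lowest ratios of the 10. They had 33.7 and 34.2 CPM in TD and 24.9 and 26.4 in TT, ratios of 0.738 (0.519 to 1.04) and 0.773 (0.552 to 1.09). Mmrn2, a gene of the endothelial extracellular matrix, had 30.7 and 27.6 CPM, and Mdm4, an inhibitor of p53, had 28.8 and 25.4. Slc4a8, a bicarbonate transporter gene, had 24.9 and 23.5. Only 2 regions were higher in TT. The region inside Cul4a near Lamp1, a lysosomal membrane protein gene, had 23.9 CPM in TD and 24.6 in TT. The region near 4930467E23Rik (chr8:19784839-19784972) had 22.2 and 26.7, and it alone was strong in all 4 groups, with 18.5 CPM in ED and 16.7 in ET. These were the highest values of ED and ET. The region was also the highest of both H3K27ac columns, with 63.1 CPM in 4HT and 48.5 CPM in solvent (EtOH). Why it was high in every column was not tested. None of the 10 intervals excluded a ratio of 1.

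**Figure D3:**
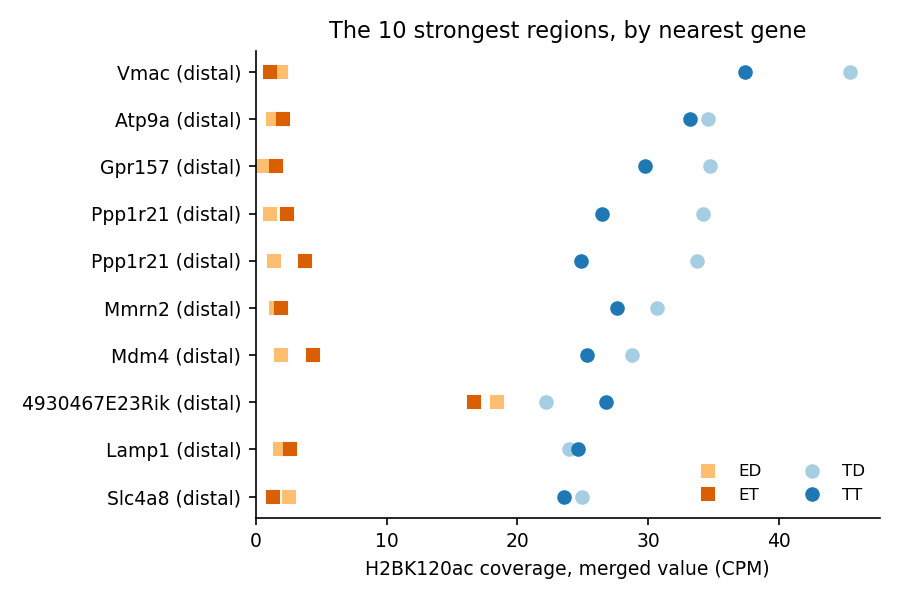
H2BK120ac coverage (CPM, merged values) of the 10 regions with the highest mean of TD and TT, labelled by the gene with the nearest TSS, in ED, ET (squares), TD and TT (circles). TT lies left of TD in 8 of 10, and only the region near 4930467E23Rik is above 5 CPM in ED or ET.

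The 10 largest differences towards TD were at regions of moderate strength, between 3.53 and 5.73 CPM in TD. These regions, and the 10 towards TT that follow, were picked for their folds in these data. Their intervals are therefore no test of a difference. The largest was 710 bp from the TSS of Dnaja2, an HSP70 co-chaperone gene, at chr8:85554416-85554651. It had 3.95 CPM in TD and 0.415 in TT, the value taken for 1 fragment. Its ratio was 0.105 (0.00232 to 0.708). Kdm6a, which encodes a demethylase of H3K27, had 3.84 and 0.416 CPM at chrX:18163027-18163223, and Wdr5, which encodes a shared subunit of H3K4 methyltransferase complexes, had 3.73 and 0.415 at chr2:27515282-27515586. Both lay within 1 kb of the TSS, and each had a pile-up of about 9 in TD against 1 in TT. Regions near Ptgs2 (cyclooxygenase, 4.94 and 0.779 CPM), near Bambi (a decoy receptor of BMP signalling, 4.77 and 0.802) and inside Dock4 (a Rac activator, 5.73 and 1.21) also had intervals below 1. Those inside Cltb (clathrin light chain), Dnajc8 (a co-chaperone), Iqcm and Zfp42 (the pluripotency marker Rex1) did not, with 3.53 to 3.88 CPM in TD and upper limits of 1.08. In ED and ET these 10 regions had 2.53 CPM or less.

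The 10 largest differences towards TT began from 0.615 to 1.82 CPM in TD. The promoter of Kifc5b, whose sequence is given above, had 0.615 CPM in TD and 3.66 in TT (chr17:26916740-26917305), a ratio of 5.95 (1.26 to 397). Kifc5b has close paralogues, between which reads could be split. A region inside Cmip, a signalling adaptor gene, had 0.981 and 4.90 CPM, and one 98155 bp from C1galt1, a glycosyltransferase gene, had 1.03 and 4.94. The ratios were 4.99 and 4.81 with an interval of 1.35 to 55.6 for both. The best covered was inside Bbc3, the gene of the p53 target PUMA that promotes cell death, at chr7:16313581-16313751, with 1.82 CPM in TD and 7.09 in TT and a ratio of 3.89 (1.40 to 17.5). The region near Pld4, inside Cep170b, had 0.941 and 4.25 CPM (1.07 to 47.3). Regions inside Lmo1, Zfp469, Impa2 and Il34 (nearest to Mtss2), and the region near AU018091, had ratios of 4.17 to 5.33 with intervals that held 1.

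**Figure D4:**
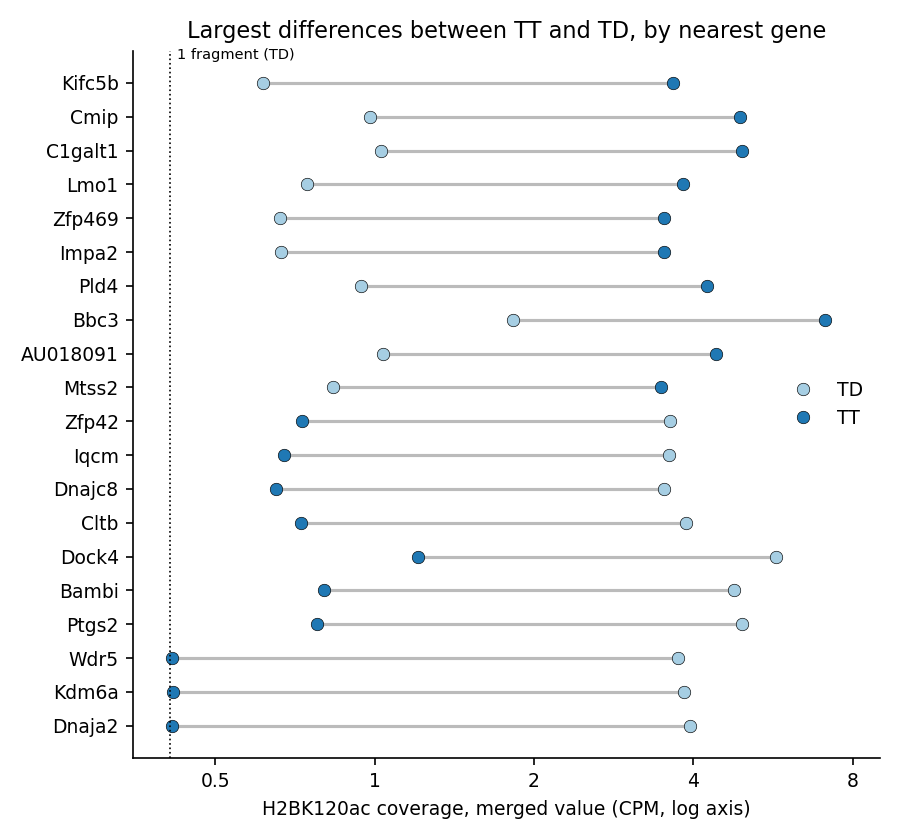
The 20 well-covered regions of largest log2 fold, 10 towards TT and 10 towards TD, labelled by the gene with the nearest TSS, with the merged coverage (CPM, log axis) in TD (light) and TT (dark). The dotted line marks the value taken for 1 fragment in TD. The TT values near Dnaja2, Kdm6a and Wdr5 lie at about that value.

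Over all well-covered regions, the counting interval excluded a ratio of 1 in 51 of 4021 (1.27%). Intervals of this level may miss 5% by counting alone. The pile-up, however, is not a count and rests on the value taken for 1 fragment. With a smaller value, the number of intervals excluding 1 among the 20 regions of largest fold rose from 11 to 20. The count over all well-covered regions was not repeated with that smaller value. Whether the 51 exceed counting error was therefore not tested, and the interval by itself does not set such a region apart. Of the 51, 41 were lower and 10 higher in TT, and for ET against ED the count was 29 of 2321. The set is given for its named genes. Among the stronger regions lower in TT was one 635 bp from the TSS of Brd2, a gene of a bromodomain reader of acetylated histones, at chr17:34120945-34121112, with 15.1 CPM in TD and 7.62 in TT (ratio 0.504, 0.263 to 0.883). A region 53869 bp from Myc, the growth-promoting transcription factor gene, had 18.9 and 9.88 CPM at chr15:62039210-62039414 (0.523, 0.307 to 0.879). The Ftl1 promoter shown above had 9.27 and 4.11 CPM at chr7:45459807-45460201 (0.443, 0.186 to 0.957). These 3 had 2.55 CPM or less in ED and ET. Others were near Spink4 (25.9 and 16.7 CPM), near Gatad2a, a gene of the NuRD corepressor (20.8 and 13.1), inside Rbpj, the effector of Notch signalling (13.7 and 7.20), and inside Trp73, a p53 family gene (7.53 and 2.70). Higher in TT, beside the regions named before, were regions near Tnip3 (4.94 and 12.9 CPM), near Tbx3 (3.95 and 9.23) and inside Opcml, a cell adhesion gene (1.99 and 6.52), the last of which had 6.60 CPM in ED and 9.06 in ET.

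At promoters the genes past 2-fold had varied roles. Among the 44 proximal regions lower in TT were those of Pcna (3.45 CPM in TD and 1.46 in TT, a ratio of 0.423 with an interval of 0.111 to 1.88), Tardbp, an RNA-binding protein gene (3.97 and 1.46), Mybl2, a cell cycle transcription factor gene (4.86 and 1.85), and Cct4, a chaperonin subunit gene (3.84 and 1.56). Among the 15 higher were those of Ctcf, the insulator protein gene (1.38 and 3.24), the peroxidase genes Gpx1 (1.43 and 3.61) and Prdx6 (2.41 and 5.51), Dppa5a, an embryonic stem cell gene (1.44 and 3.47), and Cct5, another chaperonin subunit gene (1.04 and 3.11). The counting interval held 1 for each gene named in this paragraph. The genes of this paragraph other than Pcna and Cct5, and the motifs, were picked with their values in view. The CCAAT box, searched as CCAAT on both strands in windows of 250 bases, was found in 35.4% of all 21263 promoters, in 36.5% of the 812 promoters that overlap a well-covered region within 2-fold, in 17 of 28 promoters at a region lower in TT and in 1 of 11 at a region higher in TT. The GC box was found in 42.6%, 66.0%, 57.1% and 45.5%, and the AP-1 motif TGANTCA in 6.13%, 4.43%, 0 of 28 and 3 of 11. The 28 promoters belong to 27 genes and the 11 to 9 genes, so windows of the same gene were counted separately. A window may overlap its region only in part, as 1 of Cct5 does by 89 bp, so a match can lie outside the region. These shares describe small sets of regions that were chosen by this comparison, and a match is not a bound site.

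Some targets of p53 had strong promoter signal in both groups. In the arrest and feedback list, 28 well-covered regions included 0 at least 2-fold higher and 0 lower, beside 1.96% and 5.42% of all well-covered regions. Strong regions of any gene rarely passed 2-fold. Of the 263 with a mean of 8 to 15 CPM, 1 was higher and 1 lower, and of the 55 at 15 CPM or more, 0 passed. The count of 0 is therefore not particular to p53 targets. The 28 had a median log2 fold of -0.13 (0.08 after quantile normalization), with TT below TD in 19. The Ccng1 promoter shown above had 27.1 CPM in TD and 21.04 in TT, a ratio of 0.777 (0.526 to 1.14). Cdkn1a, which encodes the cyclin kinase inhibitor p21, had 15.9 and 12.8 CPM at chr17:29093528-29093872 and 13.6 and 12.3 at chr17:29090895-29091047. Mdm2, which encodes the ubiquitin ligase of p53, had 11.3 and 10.4 CPM 265 bp from its TSS. In ED and ET the same 4 regions had between 0.362 and 3.28 CPM, well below TD and TT, which lay within 2-fold of each other. Phlda3, an inhibitor of AKT, had 7.84 and 8.97, and Sesn2, a stress-induced regulator of growth signalling, had 8.01 and 4.35, with intervals that held 1. Over gene values the list had a median log2 fold of -0.10, with 3 of 16 genes above 0.

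In the cell death list of p53, Bbc3 differed along its length. Its promoter region at chr7:16309245-16309710 had 19.8 CPM in TD and 15.1 in TT, while 2 neighbouring regions inside the gene, 3150 and 3405 bp from the TSS, had 1.82 and 1.46 CPM in TD and 7.09 and 4.57 in TT. The latter had an interval of 0.821 to 11.9, and the 2 regions lie close enough to share fragments. Bax, a pore-forming gene of the mitochondrial death pathway, had 7.53 and 3.88 CPM 1107 bp from its TSS, a ratio of 0.515 (0.202 to 1.18). Of the 14 well-covered regions of this list, 2 were higher, both in Bbc3, and 0 lower, beside 1.96% and 5.42% of all well-covered regions. Their median log2 fold was -0.27 (-0.11 after quantile normalization). Over gene values 6 of 12 genes were above 0.

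Naive pluripotency genes, which hold embryonic stem cells in their earliest state, were the list with the most well-covered regions. Of their 36 regions at 5 fragments or more, 6 were at least 2-fold lower and 1 higher, beside 5.42% lower and 1.96% higher among all well-covered regions, and their median log2 fold was -0.45. After quantile normalization 4 were lower and 1 higher, with a median of -0.32. Of the 6, 3 lay inside Esrrb, the gene of an orphan nuclear receptor that sustains naive cells. They had 5.62 CPM in TD and 2.50 in TT at chr12:86470009-86470392, 3.92 and 1.32 at chr12:86484415-86484613, and 3.66 and 1.24 at chr12:86477845-86478051. Each interval held 1. A region inside Klf4, 1896 bp from the TSS of this reprogramming factor gene, had 5.76 and 1.74 CPM (0.302, 0.0690 to 0.917). The remaining 2 were inside Zfp42, where its promoter-side region had 2.94 and 1.20 CPM 915 bp from the TSS. The region that was higher was 81436 bp from Tbx3, a T-box gene of naive cells, with 3.95 and 9.23 CPM (2.34, 1.01 to 5.24). Regions of a gene share a locus and are not independent. Over gene values 0 of 18 members passed 2-fold and the median was -0.09. Esrrb had the lowest log2 fold, -0.57.

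The 15 well-covered regions of core pluripotency genes had a median log2 fold of -0.26 (-0.14 after quantile normalization), with 2 at least 2-fold higher and 0 lower, beside 1.96% and 5.42% of all well-covered regions. The region 4253 bp upstream of Nanog had 6.28 CPM in TD and 5.28 in TT, that over the TSS of Sox2 had 3.70 and 4.33, and that over the TSS of Rif1, a chromatin protein gene, had 5.65 and 4.24. Zfp281, a zinc finger gene of the pluripotency network, had both of the regions past 2-fold, at 1.45 and 3.82 CPM near its TSS and 1.54 and 3.79 at a distal site, and both intervals held 1. Over gene values Tdgf1, a Nodal co-receptor gene, had the lowest log2 fold of the list, -0.70, within 2-fold. In the LIF and STAT3 pathway, through which LIF sustains self-renewal, TT was below TD in 7 of 7 well-covered regions and 0 passed 2-fold, where TT was above TD in 37.4% of all well-covered regions. The promoters of Stat3 (3.99 and 2.49 CPM) and Socs3, its feedback inhibitor (2.998 and 2.03), were among them.

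Regions of immediate early genes and short-lived transcripts were mostly within 2-fold, as were 92.6% of all well-covered regions. Of 23 well-covered regions of the immediate early list 0 were higher and 0 lower, beside 1.96% and 5.42% of all well-covered regions. The 23 had a median log2 fold of -0.14 (0.01 after quantile normalization). Ier2 had 14.4 CPM in TD and 9.38 in TT at its strongest region, Junb 13.95 and 8.57, and Btg1, an antiproliferative gene, 12.95 and 7.37, while the strongest region near Ier5 had 9.88 and 10.6. The upper limits of the first 3 ratios were 1.15, 1.10 and 1.08. The list of Myc and short-lived transcripts had 0 higher and 2 lower of 23, beside the same shares of all well-covered regions. Both lower regions were near Hes1, a Notch target gene. The median log2 fold of the 23 was -0.27 (-0.07 after quantile normalization). Around Mcl1, a survival gene, 9 regions lay between 0.598 and 1.59 in ratio and on both sides of 1.

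Among histone acetylation enzymes and readers, 1 of 23 well-covered regions was at least 2-fold higher and 0 lower, beside 1.96% and 5.42% of all well-covered regions. Brd2 had the highest gene value, 6.10 CPM in TD and 4.38 in TT, a log2 fold of -0.45, and its regions ranged from the 15.1 and 7.62 CPM given above to 5.01 and 5.98 at chr17:34120360-34120531. Brd1, a scaffold of acetyltransferase complexes, had 17.1 and 12.7 CPM at its strongest region, and the promoter of Ep300, which encodes the acetyltransferase p300, had 2.19 and 3.13. Hdac2, a deacetylase gene, had 4.86 and 5.06 at its promoter. In the DNA methylation and TET list, 1 of 8 well-covered regions was at least 2-fold higher and 1 lower, beside the same shares. TT was below TD in 6 of the 8. Tet1, which encodes an enzyme that oxidizes methylated cytosine, had 5 well-covered regions, 4 of them within 1 kb of its TSS. TT was below TD in each of these 5 regions. They included 11.1 and 6.31 CPM at chr10:62886892-62887003, 9.92 and 5.16 at chr10:62887070-62887526 and 5.92 and 1.91 at chr10:62886577-62886739. The upper limits were 1.09, 1.05 and 1.06, and neighbouring regions can share fragments. The gene value of Tet1 was 2.77 CPM in TD and 1.61 in TT, a log2 fold of -0.66, within 2-fold.

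Heat shock genes and chaperones, proteins that fold other proteins, had 1 region higher and 3 lower of 16 (2 lower after quantile normalization), beside 1.96% and 5.42% of all well-covered regions. The region higher was the Cct5 promoter. Lower in TT were 2 regions upstream of Hspa8, the constitutive HSP70 gene (4.67 and 1.84, and 3.20 and 1.36 CPM), and 1 near Hspb1, a small heat shock protein gene (4.57 and 1.51), while the Hspa8 promoter had 5.23 and 5.17. In replication licensing and E2F, Pcna had the only 1 of 8 past 2-fold, beside the same shares of all regions, and after quantile normalization or centring 0 of 8 passed it. Mcm5, which encodes part of the replicative helicase, had 4.38 and 3.31 CPM at its promoter. The 30 well-covered regions of cytosolic ribosomal protein genes had a median log2 fold of -0.09 (0.04 after quantile normalization), with 1 higher (near Rpl7) and 0 lower, and the 20 of splicing factors -0.16 (-0.02 after quantile normalization), with 0 and 0. In the WNT list 2 of 7 were lower (1 after quantile normalization), beside the same 5.42%, namely those near Ctnnb1 and Axin2. Ctnnb1, the gene of beta-catenin, had 9.25 and 4.03 CPM at a region 13789 bp from its TSS (0.436, 0.187 to 1.01). Another region of this list, inside Pde10a and nearest to the mesendoderm gene T, had 12.2 and 10.2, within 2-fold.

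Gene values over 50 kb gave few differences. Among 16784 genes, 184 passed 2-fold towards TT (1.1%) and 198 towards TD (1.18%), with a median log2 fold of -0.01. Among the 3326 genes with a mean of 3 fragments or more there were 15 (0.451%) and 35 (1.05%). The 31 gene lists held 581 measured genes, of which 3 were higher and 2 lower, and list medians ran from -0.21 (canonical H2B genes, which encode the histone that carries the mark) to 0.09 (forkhead genes), with 22 negative and 9 positive (17 negative after quantile normalization). The 3 higher were Nelfe, a pausing factor gene (log2 fold 1.08), Phf1, a Polycomb-associated gene (1.32), and Gata4, a primitive endoderm factor gene (just past 2-fold), each with under 3 fragments. The 2 lower were Bag3, a co-chaperone gene (-1.70, also under 3 fragments), and T, the mesendoderm factor Brachyury. The value of T, 3.73 CPM in TD and 1.51 in TT, came from 1 region within 50 kb that lay nearer to the TSS of another gene. The 1 well-covered region nearest to T, inside Pde10a, was within 2-fold. Other members, named for their coverage, lay within 2-fold. Hspa9, the mitochondrial HSP70 gene, had 3.88 and 2.03 CPM, Med18, a Mediator subunit gene, 2.21 and 1.24, Polr2h, an RNA polymerase II subunit gene, 4.17 and 4.00, and Bmi1, a Polycomb gene, 2.77 and 3.03.

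**Figure D5:**
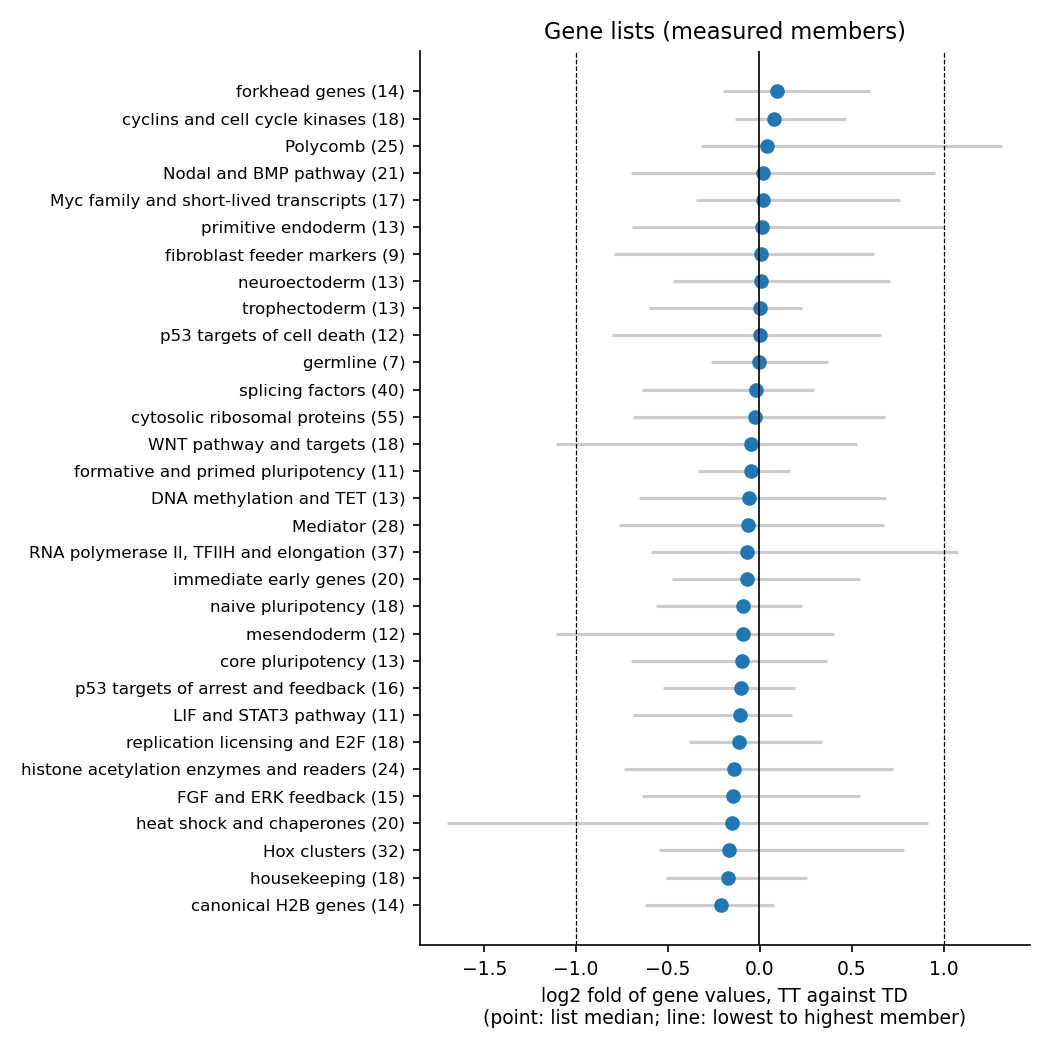
Log2 fold of gene values (mean over regions within 50 kb) in TT against TD for 31 gene lists, with the number of measured members in brackets; points are list medians and grey lines run from the lowest to the highest member. The solid line is the median of all 16784 genes and the dashed lines mark 2-fold; list medians lie between -0.21 and 0.09.

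Foxd3 itself carried little of the mark. Its span, chr4:99656299-99658671, held 2 regions, with 0.103 and 0.807 CPM in TD and no coverage in TT. The value of 0.807 CPM is a pile-up of about 2 at the value taken for 1 fragment. These values are too low to check the labels. Of 20 regions within 50 kb, 15 were covered enough to enter the gene value, and TT was above TD in 7 of them and below in 8. The 1 well-covered region, 13817 bp from the TSS at chr4:99670116-99670739, had 3.05 CPM in TD and 3.98 in TT, with 2.17 in ED and 2.93 in ET. The gene value of Foxd3 was 0.871 CPM in TD, with a log2 fold of 0.27 for TT against TD.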

How the data were processed

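H2BK120ac CUT&Tag values were taken as the authors deposited them: coverage signal per region, given as CPM in the name of the table, the replicates of a group being merged into 1 column. Per the submitters' processing notes the build is mm10; the sources used here name no aligner or coverage tool. A missing value was counted as 0. How bases without coverage enter a region's mean is not stated in these sources. The lowest value was 0.25 of the commonest in each H2BK120ac column and equal to it in both H3K27ac columns. If such bases are left out, 1 fragment would be worth no more than the lowest value. Which value holds for 1 fragment was not tested. In the H3K27ac table the deposited signal was used only to class regions. A further 16 value columns, named IgG, could be tied to no sample and were left out; only the positions of 38087 TSS windows were read from their tables.

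The members and gene lists were chosen with earlier results of these data known. Merged columns allow neither the planned fits nor the permutation tests, which need replicates. Folds used a pseudocount of 0.4, which understates the change of low regions. Well-covered regions were chosen on the mean of TD and TT in place of the planned level in TD, because a level in a compared column would itself set a direction. Each region took its name from the protein-coding gene whose TSS lay nearest. RefSeq gave a TSS on GRCm38.p6 for 21492 of 21887 genes, of which 4000 rested on the gene end nearest to a window (right in 96.3% of 16494 genes of known strand). These tables hold no exons or untranslated regions. Named regions were the 10 largest folds in each direction and the 10 strongest. Of each list, members at least 2-fold with 3 fragments and the top members by mean were to be named; further list regions, and genes outside this rule, were picked with their values in view. The size rule and intervals were tested on simulated pile-ups. Python 3.11.15, numpy 2.4.6, pandas 2.3.3, SciPy 1.17.1 and matplotlib 3.10.9 were used.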

Additional observations from a re-analysis of the deposited data

Results flagged for a closer look

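The change of the second letter had opposite signs in the T and E cells. Over the same 4021 regions, the median log2 fold was -0.161897 for TT against TD and 0.118286 for ET against ED. This difference was not tested, since each group is 1 merged column. It holds for CPM as deposited. The median for TT against TD was 0 after quantile normalization, and ET against ED was not rescaled. Over all 127646 regions, many without coverage, both medians were 0.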

How the results depend on the processing

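The 79 regions higher and 218 lower in TT became 48 and 133 with a pseudocount of 0.8, 302 and 580 at a minimum of 3 fragments, 9 and 44 at 10 fragments, 2082 and 2424 without a filter, 122 and 119 after quantile normalization, and 163 and 135 when centred on the well-covered median. In regions well covered in H3K27ac 4HT they were 944 and 1230, and in those well covered in ET and ED 148 and 226. The last 3 settings were added after seeing the data. The share of higher among called regions was 26.6% as reported, 50.6% after quantile normalization, 54.7% when centred and 46.2% without a filter. The median log2 fold of -0.16 was -0.12 at 3 fragments, -0.20 at 10, 0.0056 without a filter (reversed), 0 after quantile normalization, -0.00069 when centred, -0.041 in the H3K27ac regions and -0.12 in the ET and ED regions. Quantile normalization and centring remove the shift by construction; for the other settings the cause was not tested. Genes higher and lower were 87 and 101 with a pseudocount of 0.8 and 334 and 347 with 0.2. Of 217 list medians under alternatives, 189 stayed within the interval of the median and 28 moved. This is no test, since genes of a list are not replicates. Some of the 189 changed sign, such as replication licensing and E2F, from -0.114 to 0.033 with gene values over 1 kb. At 1 kb 12 of 31 list medians moved and 16 were negative, against 22 negative as reported. Counting intervals excluded 1 in 11 of the 20 regions of largest fold, and in 20 if a fragment is worth 0.25 of the commonest value. Because these regions were chosen for their folds in the same data, neither count is a test. No paired analysis was possible because the replicates are merged into 1 column per group, and leaving out a replicate could not be run for the same reason. Depth limits what can be seen: only 47170 of 127646 regions had coverage in both TD and TT.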
